A study of Rattus norvegicus with 8 samples.

Results

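The Hedgehog and Notch genes followed here were Dhh, Ptch1, Smo and Gli1 of the Hedgehog pathway and Notch1, Notch2, Jag1, Hes1, Hey1 and Dlk1 of the Notch pathway. They were chosen by name, with earlier results of these data known. Every probe set that the platform's gene annotation assigns to 1 of these symbols alone was taken. This gave 11 of the 31042 probe sets tested, for 9 of the 10 genes, with 2 probe sets each for Smo and Notch1 and 1 for each of the others. Ptch1 was not analysed here, because none of the single-symbol probe sets was annotated to it.

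RNA from Fischer 344 rat testes of gestational day 20 had been hybridised to 8 Affymetrix arrays. Of the samples, 4 came from dams dosed with dibutyl phthalate (DBP), a phthalate ester used to soften plastics and a known inhibitor of fetal androgen production, at 50 mg/kg body weight. The other 4 came from dams that received the corn oil vehicle alone. Both were given by gavage at 1 ml/kg once a day from gestational day 12 to day 20, and testes were taken 6 h after the last dose. The labels do not say whether samples came from separate dams or litters, or whether fetuses were pooled, so the p-values rest on the spread among these arrays, which may be technical. Values are log2 signals per probe set, in which 1 unit is a doubling of signal.

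In the Hedgehog pathway a secreted ligand binds the receptor Patched, which then stops restraining the membrane protein Smoothened, and GLI transcription factors switch on targets that include Gli1 and Ptch1. Desert hedgehog, the ligand of the testis, comes from Sertoli cells, and in mice its loss impairs testis cord formation and the differentiation of fetal Leydig cells from interstitial precursors. In the Notch pathway a ligand on 1 cell, such as Jagged1, triggers the cleavage of a Notch receptor on its neighbour. The freed intracellular part joins the DNA-binding protein RBPJ and switches on repressors of the Hes and Hey families. In the mouse fetal testis Notch activity has been described as holding interstitial progenitors back from becoming Leydig cells.

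The promoters of a receptor and of its classical target are shown, because Notch1 gave the largest difference among these genes while Hes1 is the textbook readout of Notch activity. Each is the stretch of 250 bases before the annotated start in RefSeq's rat assembly GRCr8, read in the direction of the gene, with the RBPJ core TGGGAA in capitals where either strand holds it. Hes1 lies on the minus strand at chr11:84213046-84213295 and Notch1 on the minus strand at chr3:29721614-29721863.
Hes1: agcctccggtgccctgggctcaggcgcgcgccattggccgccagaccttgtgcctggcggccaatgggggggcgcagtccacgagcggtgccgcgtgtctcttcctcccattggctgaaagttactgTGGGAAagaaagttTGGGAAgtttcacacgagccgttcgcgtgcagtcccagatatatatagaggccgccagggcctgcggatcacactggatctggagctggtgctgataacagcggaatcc
Notch1: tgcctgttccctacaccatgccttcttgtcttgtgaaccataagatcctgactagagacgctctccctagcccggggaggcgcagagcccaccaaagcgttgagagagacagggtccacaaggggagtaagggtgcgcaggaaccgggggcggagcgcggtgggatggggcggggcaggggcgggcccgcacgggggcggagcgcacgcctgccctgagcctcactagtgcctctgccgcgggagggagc
The Hes1 window held 2 matches to TGGGAA in the direction of the gene, at -123 to -118 and at -109 to -104 from the start, and the first belonged to the longer form TGTGGGAA. The short core was found on either strand in 22.1% of 33469 promoter windows of the same length and the longer form in 1.54% of them. RefSeq's table held 8 of the 10 genes, and of these Hes1 alone matched the RBPJ core. The GLI motif TGGGTGGTC, searched on both strands, was found in 0.338% of all windows and among the 8 in that of Ptch1 alone, at -172 to -164. A match to these letters is a description of the sequence.

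The arrays correlated at 0.992 to 0.997 within the DBP group and 0.998 within the vehicle group. The poly-A spike-ins are foreign RNAs mixed into each sample ahead of the labelling reaction. DBP replicates 3 and 4 were lower in them, with mean log2 signals of 4.84 and 4.79, against 6.68 and 7.17 on the other DBP arrays and 6.46 to 6.79 on the vehicle arrays. The testis markers Amh and Cyp17a1 were bright in both groups. Amh, a Sertoli cell hormone, averaged 12.62 in DBP and 12.67 in vehicle samples, and Cyp17a1, a Leydig cell enzyme of androgen synthesis, 12.60 in DBP and 12.64 in vehicle samples. In a bulk sample, fewer cells of a type and less RNA per cell cannot be told apart.

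None of the members passed limma's test, in which p-values were adjusted by Benjamini-Hochberg over all tested probe sets and the threshold was 0.05. The count was 0 of 11 member probe sets, against 1.07% of all tested probe sets. In the same fit 3 of the 11 had an unadjusted p under 0.05, both Notch1 probe sets and Gli1, all lower after DBP, against 18.2% of all probe sets in either direction and 8.86% lower. Signals lay lower in DBP samples for 8 of the 11 and higher for 3, against 45.1% lower of all probe sets. The median log2 change was -0.10 over the 11 probe sets and 0.02 over all tested probe sets. These counts hold Smo and Notch1 2 times each. With 1 probe set per gene, 2 of 9 had an unadjusted p under 0.05, against 19.1% of all genes. Both were lower, against 7.84%. Of the 9, 6 lay lower, against 42.7% of all genes, and the median log2 change was -0.04, against 0.02. The 11 changes ran from -0.39 to 0.12, and the largest mean difference was 1.31-fold.

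**Figure D1:**
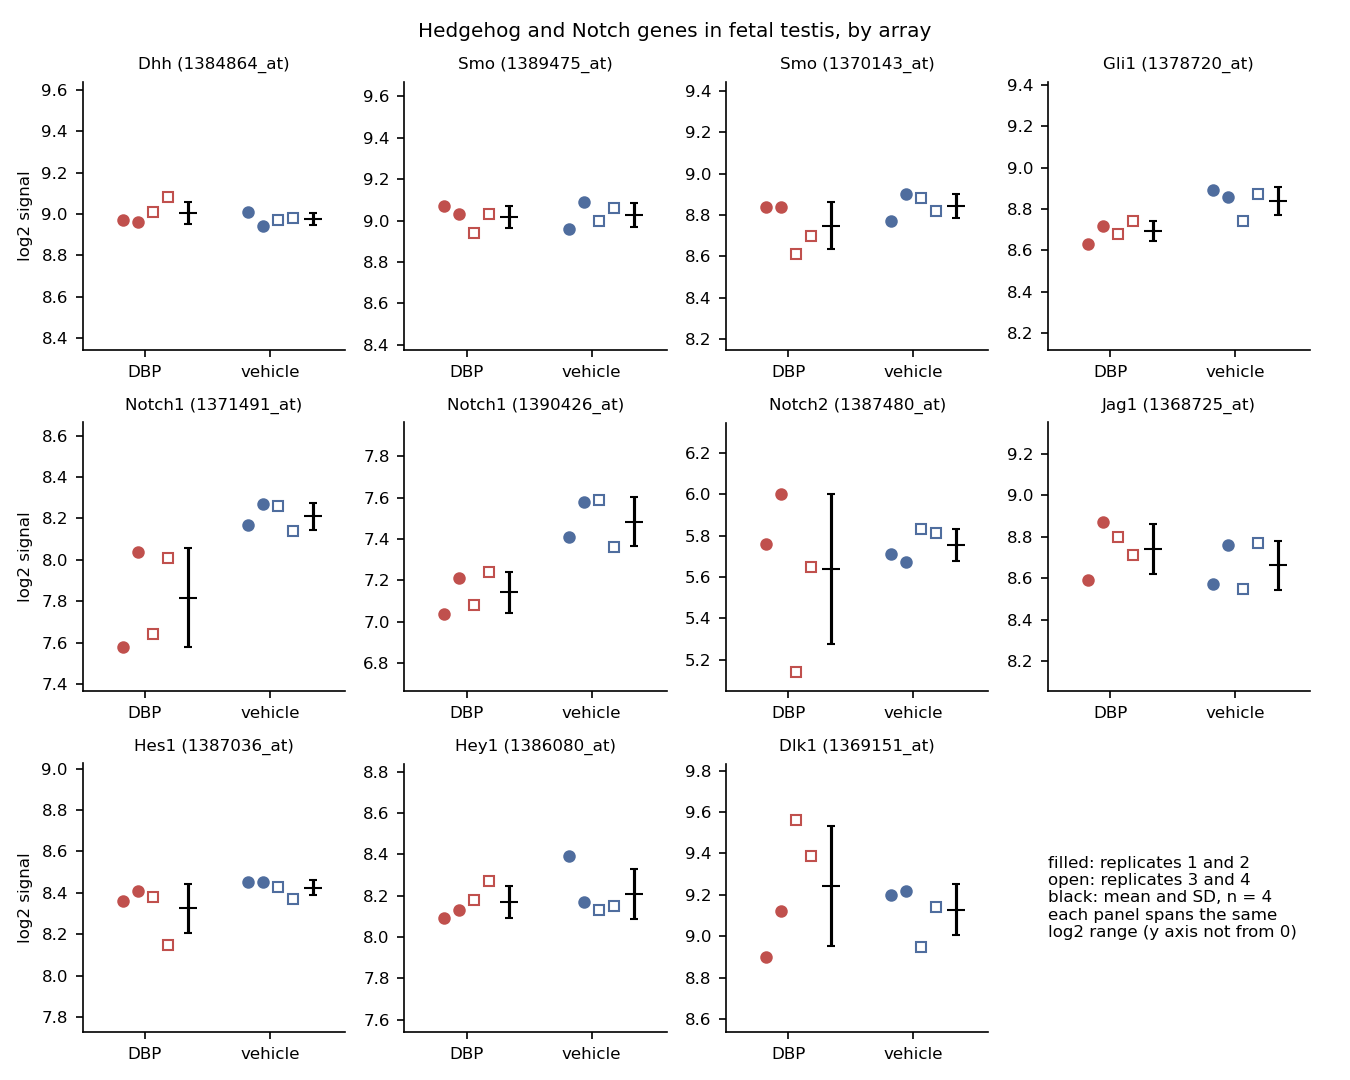
Log2 signal of the 11 member probe sets on each array, DBP samples on the left and vehicle samples on the right of each panel, with the mean and SD of 4 arrays in black. The groups are separated for both Notch1 probe sets, and the DBP arrays are spread most widely for Notch2 and Dlk1.

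Dhh, the ligand, had log2 signals of 8.97, 8.96, 9.01 and 9.08 in DBP samples and 9.01, 8.94, 8.97 and 8.98 in vehicle samples. The groups overlapped almost completely. The log2 change was 0.03 ± 0.05 (SE, n = 4 per group), with a 95% interval of -0.09 to 0.15.

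Smo, the transducer that Patched restrains, was read by 2 probe sets. The brighter, 1389475_at, gave 9.07, 9.03, 8.94 and 9.03 in DBP samples and 8.96, 9.09, 9.0 and 9.06 in vehicle samples, with a log2 change of -0.01 (95% interval -0.14 to 0.12). The other, 1370143_at, gave 8.84, 8.84, 8.61 and 8.70 in DBP samples and 8.77, 8.90, 8.88 and 8.82 in vehicle samples. Its lowest values were those of DBP replicates 3 and 4, the arrays with low spike-in signal, and the other DBP arrays lay inside the vehicle range. The log2 change was -0.10 ± 0.07 (SE; limma adjusted p = 0.472), made up of -0.0025 in DBP replicates 1 and 2, against -0.19 in DBP replicates 3 and 4.

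Gli1 is both a transcription factor of the pathway and, with Ptch1, its most used target readout. It had log2 signals of 8.63, 8.72, 8.68 and 8.74 in DBP samples and 8.89, 8.86, 8.74 and 8.87 in vehicle samples. The highest DBP array equalled the lowest vehicle array, so the groups met without crossing. The log2 change was -0.15 ± 0.06 (SE, n = 4 per group), with a 95% interval of -0.28 to -0.02, and did not pass (limma adjusted p = 0.228). The pair of DBP arrays with usual spike-in signal gave -0.17 and the pair with low signal -0.13.

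**Figure D2:**
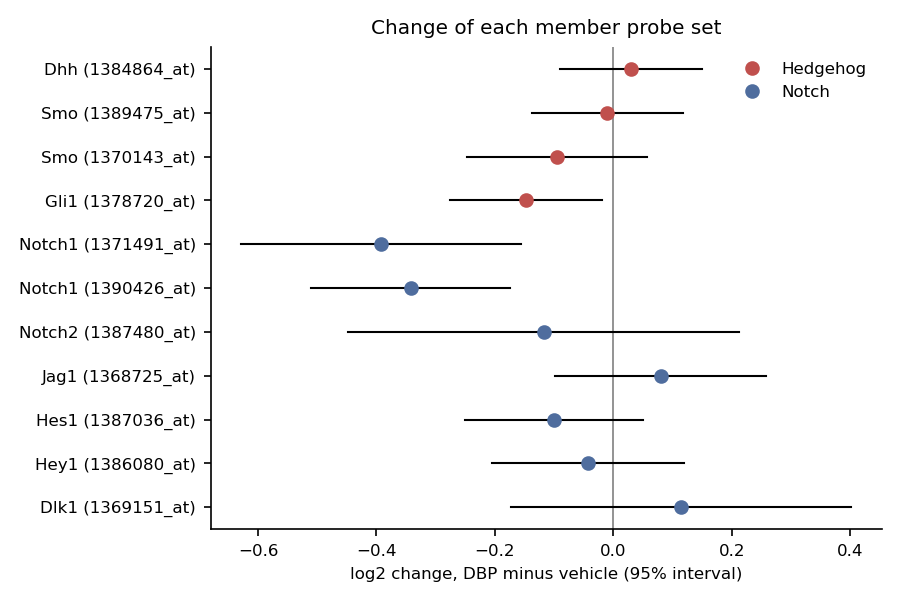
Log2 change of each member probe set, DBP minus vehicle, with its 95% interval from limma (n = 4 per group), Hedgehog genes in red and Notch genes in blue. The intervals of Gli1 and of both Notch1 probe sets lie below 0, and none of the 11 passed after adjustment over all probe sets.

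Notch1, a receptor of endothelium and of many progenitor cells, showed the largest difference among the members, on both of its probe sets. Probe set 1371491_at had log2 signals of 7.58, 8.04, 7.64 and 8.01 in DBP samples and 8.17, 8.27, 8.26 and 8.14 in vehicle samples. Probe set 1390426_at had 7.04, 7.21, 7.08 and 7.24 in DBP samples and 7.41, 7.58, 7.59 and 7.36 in vehicle samples. On each, all 4 DBP arrays lay below all 4 vehicle arrays, and DBP replicates 1 and 3 were the lowest. Groups did not overlap for 2 of the 11 member probe sets, both of Notch1, against 10.9% of all tested probe sets. With 1 probe set per gene this was 1 of 9, against 12.9% of all genes.

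The log2 change was -0.39 ± 0.11 for 1371491_at (SE, n = 4 per group; 95% interval -0.63 to -0.16; 1.31-fold lower) and -0.34 ± 0.08 for 1390426_at (95% interval -0.51 to -0.17; 1.27-fold lower). Neither passed over all probe sets (limma adjusted p = 0.114 and 0.0666). Among all tested probe sets these changes stood at percentiles 1.79 and 2.62, counted from the most lowered. The difference was as large without the arrays of low spike-in signal, with -0.40 and -0.36 in DBP replicates 1 and 2, as on those arrays, with -0.39 and -0.33. The mean of both probe sets gave -0.37 (limma adjusted p = 0.0769).

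Calls for Notch1 came and went with the setting. With probe sets of a mean log2 signal above the median alone, 1390426_at passed (limma adjusted p = 0.0443), where 2.42% of 15520 probe sets did. Both passed with DBP replicates 3 and 4 alone against vehicle (limma adjusted p = 0.0438 and 0.0486), but there 13.3% of all probe sets passed. Over 21 alternatives the adjusted p ran from 0.0438 to 0.28 for 1371491_at and from 0.0443 to 0.208 for 1390426_at, and both stayed lower in DBP samples in each.

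**Figure D3:**
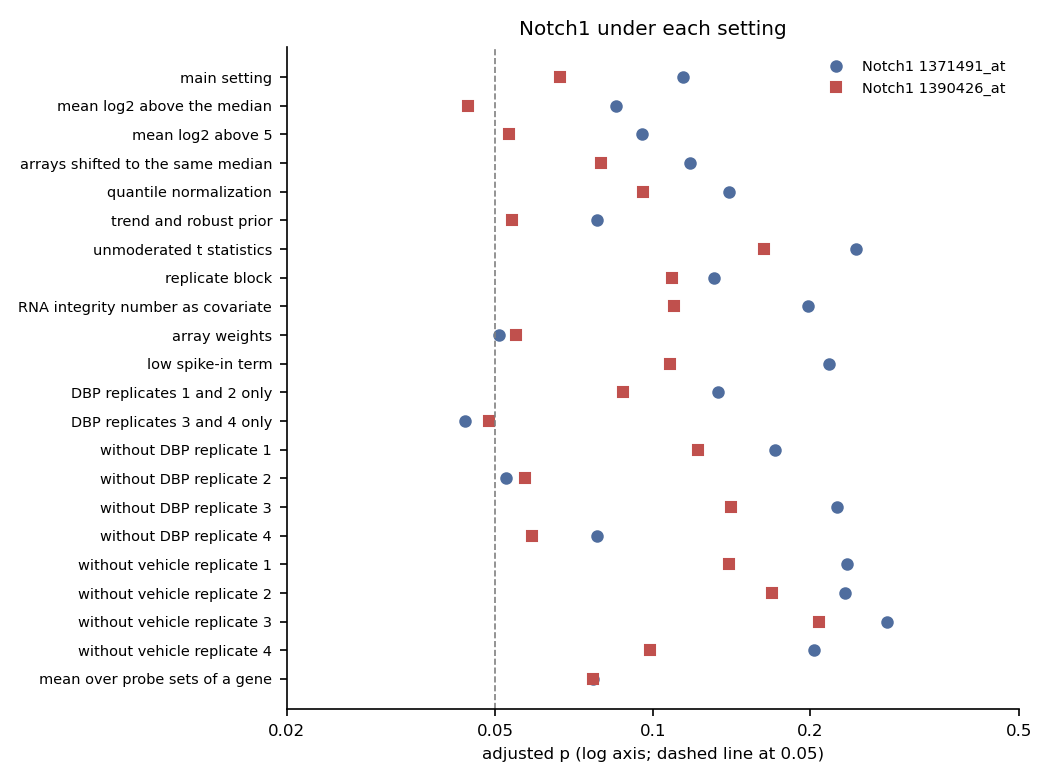
Adjusted p of the 2 Notch1 probe sets in the main setting and 21 alternatives (log axis, dashed line at the threshold of 0.05). Most points lie right of the line, and 3 lie left of it.

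Marker levels of the cells in which Notch1 or Gli1 may be found were set beside them, each as the mean log2 signal of the list on an array. For endothelium, 7 of 8 markers were measured, and the mean level was 7.58 to 7.72 in DBP samples and 7.58 to 7.60 in vehicle samples. Of these, 1 passed, against 1.22% of all genes. It was Plvap, a protein of endothelial diaphragms, which was higher by 0.36 (limma adjusted p = 0.0471) and is named here after its value was seen. The 7 went both ways, with 4 higher and 3 lower in DBP samples, where 42.7% of all genes lay lower. Pecam1, an endothelial adhesion molecule, gave 0.04, Esam 0.07 and Egfl7 0.14. Lower were the receptors Kdr (-0.13), Tek (-0.06) and Tie1 (-0.05), and for Kdr DBP replicates 1, 3 and 4 lay below all vehicle arrays.

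For interstitial stroma, all 8 markers were measured and 0 passed. Of these 7 lay lower in DBP samples, against 42.7% of all genes, and the median log2 change was -0.13, against 0.02 over all genes. The lowest changes were those of Postn (-0.56) and Wnt5a (-0.33), and Tcf21 alone lay higher (0.01). These markers are named after their values were seen. The mean stroma level was 11.11, 11.23, 10.98 and 10.90 on DBP arrays 1 to 4 and 11.22 to 11.28 in vehicle samples, and Pdgfra, a receptor of interstitial progenitors, gave -0.14. The direction was that of Notch1 and Gli1, and 3 of the 4 DBP arrays lay below all vehicle arrays in this mean. The order among the DBP arrays differed. The stroma mean was lowest on replicate 4, where Gli1 had its highest DBP value (8.74). Notch1 (1371491_at) and Gli1 were lowest on replicate 1, at 7.58 and 8.63.

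The groups overlapped in the mean level of every marker list, those of endothelium and stroma included. Sertoli cell markers, 8 of 10 measured, had mean levels of 9.64 to 9.84 in DBP and 9.76 to 9.81 in vehicle samples. Of these 5 lay lower, against 42.7% of all genes, and 3 did not. Groups did not overlap for 2 of the 8, against 12.9% of all genes. They were Inhbb, a subunit of inhibin B (-0.35, limma adjusted p = 0.0614), and Clu (0.25, limma adjusted p = 0.266). Clu gave 0.05 on its other probe set. Ptgds gave 0.26 (limma adjusted p = 0.195), and 0 of the 8 passed. Inhbb, Clu and Ptgds are named after their values were seen. Leydig cell markers, 9 of 9 measured, had 10.47 to 10.69 in DBP and 10.63 to 10.72 in vehicle samples, and 3 of the 4 DBP arrays lay below all vehicle arrays. That mean includes Vsnl1, which had the largest change of the 9 (-0.70). Its probe set is dim, at 4.46 in DBP and 5.165 in vehicle samples, and may not be above background.

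Single Leydig cell markers went both ways, and groups did not overlap for 4 of the 9, against 12.9% of all genes. Lower, as Notch1 and Gli1 were, lay Insl3, the hormone of testis descent (-0.34, limma adjusted p = 0.0732), Vsnl1 (-0.70, limma adjusted p = 0.0888) and Lhcgr, the luteinizing hormone receptor (-0.21, limma adjusted p = 0.17). Higher lay Hsd3b1, an enzyme of steroid synthesis (0.17, limma adjusted p = 0.163), and 0 of the 9 passed. These single markers, other than those at the head of their lists, are named after their values were seen.

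Myoid cell markers, 6 of 6 measured, had 9.06 to 9.34 in DBP and 8.97 to 9.21 in vehicle samples. Of these 5 lay higher and 1 lower in DBP samples, where 42.7% of all genes lay lower. Their median log2 change was 0.10, and 0 passed. Erythroid markers, 5 of 6 measured, had 8.33 to 9.22 in DBP and 8.23 to 8.69 in vehicle samples. Macrophage markers, 7 of 7 measured, had 6.50 to 6.74 in DBP and 6.48 to 6.58 in vehicle samples, and mesonephric duct markers, 4 of 5 measured, 5.66 to 5.82 in DBP and 5.51 to 5.89 in vehicle samples. The 5 erythroid and 7 macrophage markers each had a higher mean in DBP samples, where 42.7% of all genes lay lower, and 0 of them passed. The erythroid level was 9.22 and 9.10 on DBP replicates 1 and 2, the arrays of usual spike-in signal. On DBP replicates 3 and 4 it was 8.39 and 8.33, inside the vehicle range. Of 7 germ cell markers 3 were measured, with 6.80 to 6.99 in DBP and 6.86 to 6.94 in vehicle samples, and Ddx4, Dazl, Dnd1 and Pou5f1 were not analysed here. The part of cell composition in the Notch1 and Gli1 values was not tested.

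Notch2, the receptor closest to Notch1, had log2 signals of 5.76, 6.0, 5.14 and 5.65 in DBP samples and 5.71, 5.67, 5.83 and 5.81 in vehicle samples. DBP replicate 3 was the lowest array and DBP replicate 2 the highest. The change was -0.12 ± 0.15 (SE; 95% interval -0.45 to 0.21; limma adjusted p = 0.69), and its direction turned with the arrays, 0.125 for DBP replicates 1 and 2, against -0.36 for DBP replicates 3 and 4. Without DBP replicate 3 it was 0.05.

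Jag1, the ligand, gave 8.59, 8.87, 8.80 and 8.71 in DBP samples and 8.57, 8.76, 8.55 and 8.77 in vehicle samples, with overlapping groups and a log2 change of 0.08 (95% interval -0.10 to 0.26; limma adjusted p = 0.607).

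Hes1 and Hey1 are transcriptional repressors that Notch receptors switch on. Hes1 gave 8.36, 8.41, 8.38 and 8.15 in DBP samples and 8.45, 8.45, 8.43 and 8.37 in vehicle samples, a log2 change of -0.10 ± 0.07 (SE; 95% interval -0.25 to 0.05; limma adjusted p = 0.444). DBP replicates 2 and 3 lay inside the vehicle range and replicate 4 was lowest, and without that array the change was -0.04. Hey1 gave 8.09, 8.13, 8.18 and 8.27 in DBP samples and 8.39, 8.17, 8.13 and 8.15 in vehicle samples. Its log2 change was -0.04 (95% interval -0.20 to 0.12) and turned to 0.02 without vehicle replicate 1, the array that stood above the rest. Neither target gene passed, and the lower ends of their 95% intervals were -0.25 for Hes1 and -0.20 for Hey1 on the log2 scale.

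Dlk1 is an imprinted, membrane-bound relative of the Notch ligands that lacks the domain by which those activate the receptor. It had log2 signals of 8.90, 9.12, 9.56 and 9.39 in DBP samples and 9.20, 9.22, 8.95 and 9.14 in vehicle samples. DBP replicates 3 and 4 lay above all vehicle arrays, replicate 1 lay below all of them and replicate 2 below 3 of the 4. The change was 0.12 ± 0.13 (SE; 95% interval -0.17 to 0.40; limma adjusted p = 0.651). The sign differed between the arrays of usual spike-in signal, where the change was -0.12, and those of low signal, where it was 0.35. With DBP replicates 3 and 4 alone Dlk1 passed (limma adjusted p = 0.0441), in the comparison that called 13.3% of all probe sets.

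**Figure D4:**
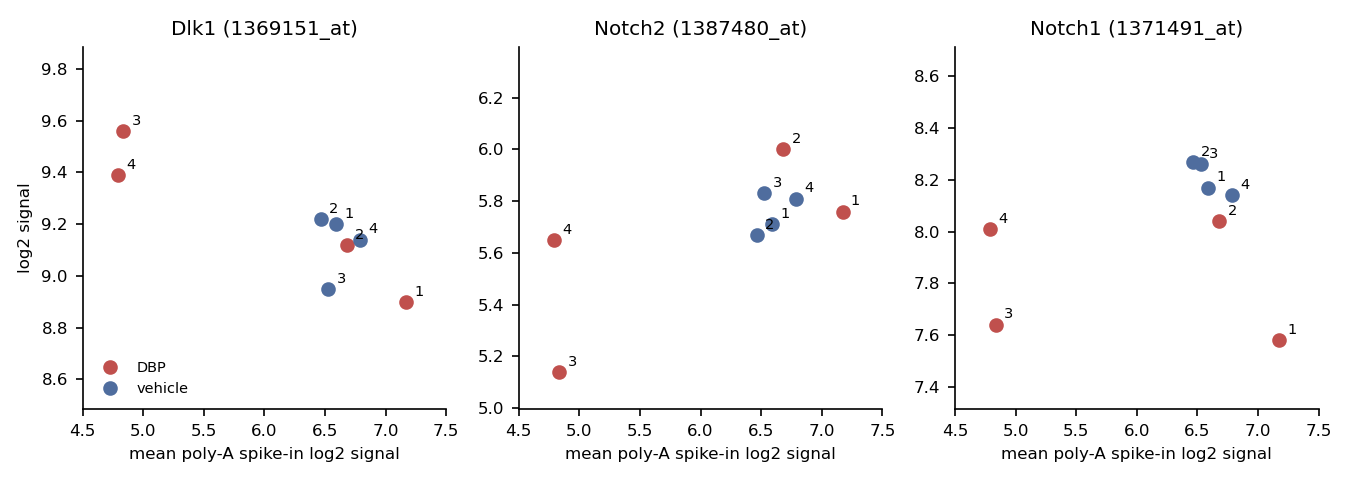
Log2 signal of Dlk1, Notch2 and Notch1 (1371491_at) against the mean log2 signal of the poly-A spike-ins on the same array, DBP samples in red and vehicle samples in blue, numbered by replicate. DBP replicates 3 and 4 sit at the left in each panel, with the highest Dlk1 values, while Notch1 is low on DBP arrays at both ends.

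Among themselves, the 2 Notch1 probe sets followed each other most closely over the 8 arrays (Pearson r = 0.93). Gli1 followed them (r = 0.79 with 1371491_at and 0.70 with 1390426_at), and Dlk1 ran against Smo 1370143_at (-0.83) and Notch2 (-0.77). These values describe 8 arrays that share their treatment groups and the spike-in difference. The genes most like Notch1 (1371491_at) across the 8 arrays, of those with a mean log2 signal above 6, were Baz1b (r = 0.986), LOC102547113 (0.985) and Mideas (0.98). Those most like Notch2 were Senp1 (0.974), Hipk3 (0.974) and Casp2 (0.969), and those most like Dlk1 were Gtf3c5 (0.959), Oxa1l (0.95) and Kptn (0.95). Notch1, Notch2 and Dlk1 were taken because their signals had the largest SD over the arrays.

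The rest of the Hedgehog pathway was read from 16 of 22 listed genes, with the brightest probe set for each. In limma 0 passed, against 1.22% of 14217 genes, and 4 had an unadjusted p under 0.05, against 19.1%, with 2 higher, against 11.3%, and 2 lower, against 7.84%. Of the 16, 10 lay lower in DBP samples, against 42.7% of all genes, and the median log2 change was -0.04, against 0.02 over all genes. Ihh, a ligand known from cartilage and gut, has a dim probe set that may not be above background, and gave 4.68, 4.59, 4.97 and 4.88 in DBP samples and 4.52, 4.47, 4.54 and 4.54 in vehicle samples. The groups did not overlap, as for 3 of the 16 genes, against 12.9% of all genes, and the change was 0.26 ± 0.08 (SE; limma adjusted p = 0.156). Gas1, a co-receptor for the ligands, gave 0.17 (limma adjusted p = 0.179).

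Gpr161, a receptor of the primary cilium that restrains the pathway, lay lower by 0.23 (limma adjusted p = 0.212) and by 0.29 on its second probe set (limma adjusted p = 0.166). Gli2, the main activating GLI factor, gave 7.54, 7.71, 7.34 and 7.60 in DBP samples and 7.77, 7.88, 7.81 and 7.62 in vehicle samples. Its groups overlapped only in that DBP replicate 2 lay above vehicle replicate 4, and the change was -0.22 ± 0.09 (SE; limma adjusted p = 0.226). Shh, the ligand of limb and neural tube, gave 0.05, and Hhip, a surface protein that captures ligand, gave -0.10. The other named genes were Disp2 (0.11), Disp1 (-0.08), which releases the lipid-bound ligand, and Spop (-0.07), an adaptor in the breakdown of GLI proteins. The probe sets of Shh, Hhip and Disp2 are dim, at mean log2 signals of 3.65, 4.72 and 4.11, and may not be above background. Gli3 was not analysed here.

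Of 48 other Notch pathway genes 36 were measured, again with 1 probe set each. In limma 0 passed, against 1.22% of all genes, and 12 had an unadjusted p under 0.05, against 19.1%. Of the 36, 9 were higher in this way, against 11.3% of all genes, and 3 lower, against 7.84%. Groups did not overlap for 7 of the 36, against 12.9% of all genes. The median log2 change was 0.06, against 0.02 over all genes. Of the ligands and receptors, the change was 0.11 for Dll1, -0.12 for Dll4, -0.05 for Jag2 and 0.07 for Notch4. Notch3, a receptor of mural cells, gave 5.72, 6.23, 5.84 and 5.97 in DBP samples and 5.58, 5.62, 5.59 and 5.78 in vehicle samples, a change of 0.30 ± 0.10 (SE; limma adjusted p = 0.182). Dll3, a divergent ligand that does not activate Notch in neighbouring cells, gave 0.28 ± 0.09 (SE; limma adjusted p = 0.168). It passed without DBP replicate 2 (0.37, limma adjusted p = 0.0485), where 1.95% of all probe sets did. The probe sets of Dll1, Jag2 and Dll3 are dim, at mean log2 signals of 5.06, 5.02 and 5.32, and may not be above background.

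Among nuclear factors and targets, Rbpj gave -0.06 (limma adjusted p = 0.661), and its other probe sets gave -0.03 and -0.13. Hey2 gave 0.30 ± 0.10 (SE; limma adjusted p = 0.167), Hes2 0.20 (limma adjusted p = 0.141) and Heyl 0.07. The other Hes genes, chosen after their values were seen, gave 0.21 for Hes5, with 0.04 on its other probe set, 0.135 for Hes3 and -0.15 for Hes6. The probe sets of Hes2 and Hes3 are dim and may not be above background. Spen, a nuclear corepressor that binds RBPJ, also named after its value was seen, had the lowest change of the 36, -0.33 (limma adjusted p = 0.261), and -0.04 on its other probe set. Among regulators, the smallest p was that of Dtx1, a Deltex ubiquitin ligase that is itself known as a Notch target in lymphocytes. It gave 8.31, 8.38, 8.31 and 8.14 in DBP samples and 8.47, 8.52, 8.62 and 8.55 in vehicle samples. All DBP arrays lay below all vehicle arrays, with a change of -0.25 ± 0.07 (SE; 95% interval -0.40 to -0.11; limma adjusted p = 0.106). Its relative Dtx4 gave 0.23 (limma adjusted p = 0.185), with -0.05 and 0.10 on its dimmer probe sets.

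Aph1a, a subunit of the gamma-secretase that cuts Notch receptors, gave -0.28 ± 0.08 (SE; limma adjusted p = 0.142). Its other measured subunits, named after their values were seen, went both ways. Psenen gave 0.17 and Psen2 0.10, while Ncstn gave -0.125, and -0.04 on its other probe set. Lfng, which adds sugars to Notch receptors, gave 0.19 (limma adjusted p = 0.193).

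**Figure D5:**
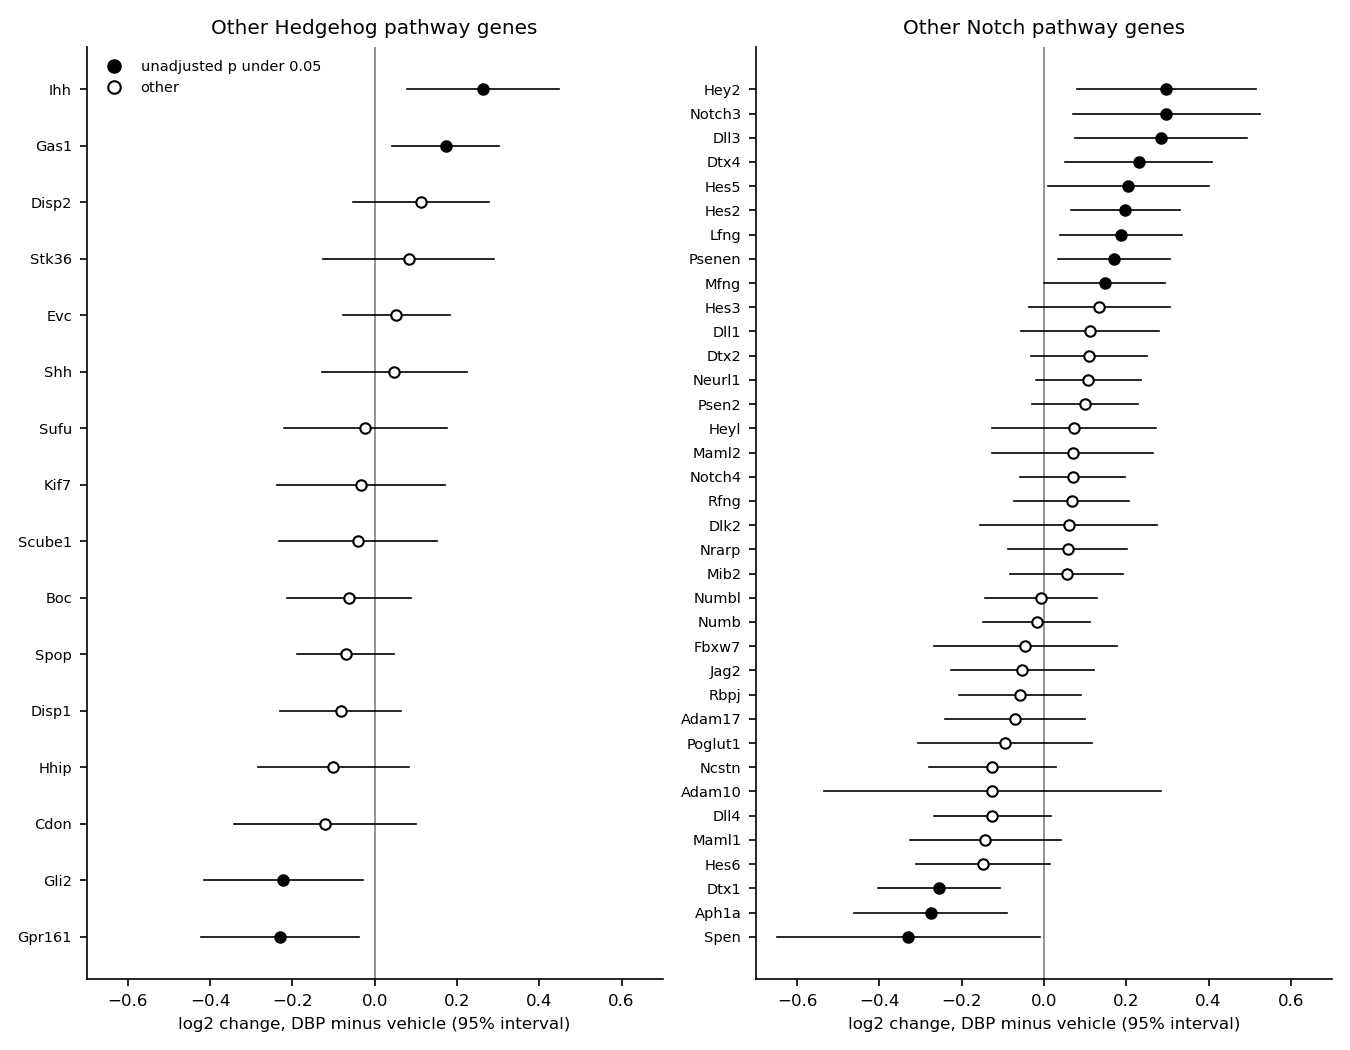
Log2 change, DBP minus vehicle, of 16 other Hedgehog and 36 other Notch pathway genes with 95% intervals from limma (n = 4 per group), filled where the unadjusted p was under 0.05. Filled points lie on both sides of 0 in each list, and none of these genes passed after adjustment.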

How the data were processed

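Per the submitters' processing notes, the authors computed the deposited log2 values by RMA, which corrects background, equalises the arrays' distributions and summarises the probes of a set. No source used here gives its version. Of 31099 probe sets, 57 Affymetrix controls were set aside and 31042 tested. Symbols came from the platform's annotation: 20826 probe sets had 1 symbol, 436 had several and 9780 had none, and the last 2 kinds were not named. Entrez IDs were looked up in RefSeq and changed 0 symbols. No detection calls were used, so a dim probe set may not be above background, also where the text does not call it dim. Precision is limited by having 4 arrays per group.

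Groups were compared with limma 3.58.1 in R 4.3.3 (empirical Bayes without trend or robust options, 2-sided), and checked on simulated data. Tables used Python 3.11.15 and pandas 2.3.3, figures matplotlib 3.10.9. All members were named with every probe set, and of the other pathway genes the 8 with the smallest unadjusted p in each list and a set of ligands, receptors and transcription factors. Others are said to be named after their values were seen. A gene's brightest probe set represented it. The members and lists were chosen with earlier results of these data known. Alternatives were filters, scalings, priors, covariates and left-out arrays.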

Additional observations from a re-analysis of the deposited data

Results flagged for a closer look

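In 126 groups of 4 arrays, taken over the member probe sets and the other pathway genes, 6 held an array far from the other 3 by Dixon's criterion, where chance gives about 5% of groups. Among the members this was Hey1, at 8.39 in vehicle replicate 1 and 8.13 to 8.17 on the other vehicle arrays. Kif7, a kinesin of the Hedgehog cilium route, was at 7.34 in DBP replicate 3 and 7.70 to 7.74 on the other DBP arrays. Spop was at 8.85 on the same array and 8.90 to 8.91 on the others. Hes2 was at 4.56 in DBP replicate 2 and 4.67 to 4.68 on the others, and Fbxw7, a ubiquitin ligase subunit that acts on the Notch intracellular part, at 6.54 and 6.79 to 6.82. Numb, an inhibitor of Notch, was at 8.41 in vehicle replicate 3 and 8.53 to 8.55 on the other vehicle arrays.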

How the results depend on the processing

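The 331 calls over all probe sets became 74 with unmoderated t statistics, 577 with DBP replicates 1 and 2 only, 4129 with replicates 3 and 4 only, and 82 to 606 without 1 array. Replicate numbers are shared by label only: deviations of same-numbered arrays correlated at 0.11, -0.08, 0.10 and -0.02, and the replicate block gave 175 calls and 0 among the members. Member calls were 1 with the filter on mean signal above the median, 3 with DBP replicates 3 and 4 only, and 0 without any 1 array. With DBP replicates 3 and 4 only, 2 other Hedgehog genes (Ihh and Gpr161) and 3 other Notch genes (Dll3, Adam10 and Dtx1) passed, and without 1 array 0 to 1 Notch genes did. The sign turned for Dhh, Smo (1389475_at), Notch2, Hey1 and Dlk1. With the low spike-in term and with DBP replicates 1 and 2 only, Dhh gave -0.01, Smo 0.0225, Notch2 0.125 and Dlk1 -0.1175. Smo gave 0.0125 with arrays shifted to the same median, 0.0220 with quantile normalization, 0.0208 with the RNA integrity number as a covariate, 0.0018 with array weights and -0.0325 to 0.0158 without 1 array. Notch2 gave 0.0208 with the RNA integrity number and -0.238 to 0.0483 without 1 array, and Hey1 0.015 with DBP replicates 3 and 4 only and -0.0767 to 0.0175 without 1 array. The cause was not tested. Gli1, Jag1, Hes1, Notch1 and Smo 1370143_at kept their sign under all 21 alternatives.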
